A study of Mus musculus with 44 samples.

Results

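The glucocorticoid receptor gene Nr3c1 and 6 genes that the receptor is known to induce (Fkbp5, Tsc22d3, Klf9, Sgk1, Ddit4 and Cdkn1a) were taken by symbol from the deposited table of CPM, the reads of a gene scaled to the same total in each library. All 7 were found among its 14699 genes, and all 7 were among the 11963 genes that reached 1 CPM in at least 5 libraries and were tested. In CD45+CD11c+MHCII high cells of tumour-draining lymph nodes, Tsc22d3 was about 1.95-fold higher in mice labelled KO than in control mice, and it was higher at each of the 4 times of day. Fkbp5 was 1.40-fold higher in the KO libraries, with its highest mean at ZT15 (83.5 CPM, against 43.4 CPM in control libraries). Averaged over the 4 times of day, Ddit4 was 1.39-fold higher and Sgk1 1.35-fold lower in control mice given tumour cells than in sham-injected mice. At ZT15 the difference of Sgk1 took the opposite direction, and its values in these groups overlapped. The receptor gene itself stood at a mean of 125 CPM in control, 125 CPM in sham and 116 CPM in KO libraries, and passed the test in no comparison with the deposited scaling and equal library weights.

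Dendritic cells (DCs) carry antigen from the skin to the draining lymph node, and the study asked how their response to tumour cells depends on the time of day and on their own clock. Each of the 44 libraries came from 1 female mouse of 8 to 12 weeks kept under 12 h of light and 12 h of darkness. Zeitgeber time (ZT) counts hours from lights on. Inguinal draining nodes were collected 24 h after injection, at ZT3, ZT9, ZT15 or ZT21. The WT group held 20 libraries, 5 per timepoint, from control mice injected subcutaneously with B16-F10-OVA, a mouse melanoma line that expresses ovalbumin. The KO group held 12 libraries, 3 per timepoint, from Clec9a-cre:Bmal1flox mice given the same cells. The PBS group held 12 libraries, 3 per timepoint, from mice of the control genotype that received PBS in place of tumour cells (sham). No KO mice received PBS, so genotype and treatment cannot be told apart when KO is set against sham.

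The Clec9a promoter drives Cre in conventional DCs and their precursors, and the floxed gene is Arntl, which encodes the clock protein BMAL1. Arntl ranged from 8.67 to 24.4 CPM in WT libraries (median 14.8), from 11.5 to 38.0 in KO libraries (median 18.0) and from 12.3 to 34.8 in PBS libraries (median 21.9). Its median was thus not lower in the libraries labelled KO than in WT libraries, although it was lower than in PBS libraries. A gene-level CPM need not show the loss of the floxed part alone, so the libraries are called KO here after their label. The sorted cells expressed the genes that define MHC class II high DCs. H2-Aa lay between 1540 and 3763 CPM, Flt3 between 416 and 769.9 CPM, and Ccr7, a marker of migratory DCs, between 3934 and 6822 CPM. Clec9a, the gene whose promoter drives the Cre, had a median of 1.70 CPM. Reads on genes numbered 20088012 to 28962671 per library in WT, 29406729 to 55799162 in KO and 28003328 to 49590054 in PBS, so every WT library was shallower than every KO library. Marker sums of T cells (280 to 1094 CPM), NK cells (15.8 to 205 CPM) and B cells (39.8 to 149 CPM) were above 0 in all libraries.

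Glucocorticoids, secreted by the adrenal gland in a daily rhythm, bind a cytosolic receptor held by heat shock proteins. The receptor then enters the nucleus, binds DNA as a dimer and induces genes that restrain inflammation and growth, while it represses many cytokine genes. In DCs, glucocorticoids are known to lower the capacity to activate T cells, and Tsc22d3 is one of the mediators of that effect. Several of the target genes also answer to other signals, among them p53, the integrated stress response, FOXO factors and the clock.

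The palindromic element that the receptor dimer binds was searched in the promoters of the members, together with the E-box that BMAL1 binds, because these letters link the gene set to the hormone and to the floxed gene. RefSeq windows of GRCm38.p6 that run from 250 bases before to 50 bases after a start site were used, and 6 of the 7 members had at least 1 window. The whole element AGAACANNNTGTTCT, which reads the same on both strands, was found in 3 of 32851 windows (0.00913%), of which 1 belongs to Sgk1. Its single arm TGTTCT, searched on both strands and contained in the whole element, was in 19.0% of windows, and the E-box CACGTG in 7.15%. Among the members, single arms were in 3 of 6 windows of Sgk1 and 1 of 3 windows of Tsc22d3. E-boxes were in 1 window of Sgk1 and in the single window of Fkbp5. Klf9 and Ddit4 with 1 window each and Cdkn1a with 2 held none of these letters. The 250 bases before 3 start sites are shown 5′ to 3′ on the strand of the gene. Capitals mark the E-box at base -169 from the start for Fkbp5 (chr17:28486150-28486399, minus strand). They mark the E-box at -246 and the whole element at -189 for Sgk1 (chr10:21993640-21993889, plus strand). They mark the single arm at -185 for Tsc22d3 (chrX:140600523-140600772, minus strand).
Fkbp5: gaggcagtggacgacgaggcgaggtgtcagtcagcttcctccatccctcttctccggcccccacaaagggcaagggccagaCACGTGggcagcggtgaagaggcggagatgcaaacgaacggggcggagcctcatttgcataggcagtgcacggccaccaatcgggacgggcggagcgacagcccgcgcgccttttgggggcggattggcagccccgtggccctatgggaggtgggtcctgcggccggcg
Sgk1: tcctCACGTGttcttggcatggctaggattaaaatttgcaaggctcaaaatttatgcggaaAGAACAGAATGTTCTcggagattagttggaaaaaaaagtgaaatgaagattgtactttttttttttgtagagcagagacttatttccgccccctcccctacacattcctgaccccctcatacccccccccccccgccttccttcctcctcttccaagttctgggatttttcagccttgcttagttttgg
Tsc22d3: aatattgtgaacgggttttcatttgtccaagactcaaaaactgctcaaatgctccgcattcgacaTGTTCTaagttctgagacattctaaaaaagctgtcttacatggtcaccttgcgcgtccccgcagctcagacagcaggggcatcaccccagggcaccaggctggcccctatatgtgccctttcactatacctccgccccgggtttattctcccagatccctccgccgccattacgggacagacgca
These matches describe the letters in the windows and are no evidence of binding.

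Per kilobase of merged exons, the members differed widely in level in these cells. On that scale the WT means were 279 for Cdkn1a, 63.5 for Tsc22d3, 16.3 for Nr3c1, 7.38 for Ddit4, 5.04 for Sgk1, 4.42 for Klf9 and 3.94 for Fkbp5. The KO means were 336, 129, 15.1, 6.88, 6.85, 3.81 and 5.72 CPM per kilobase in the same order of genes. In PBS libraries Sgk1 (6.54) and Ddit4 (5.27) stood in the opposite order from WT, and Klf9 reached 5.25 CPM per kilobase. Cdkn1a and Tsc22d3 led in each group, and the 4 lowest members lay close together. The reads behind a value ranged from 153 to 694 for Ddit4 and from 16766 to 68462 for Cdkn1a, so Ddit4 was measured least deeply. The values of Fkbp5, Klf9, Sgk1 and Ddit4 were whole multiples of 1 read in all 44 libraries, within a small tolerance. For Cdkn1a, Tsc22d3 and Nr3c1, which had more reads, rounding of the CPM of 1 read hid whether a fraction was present.

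**Figure D1:**
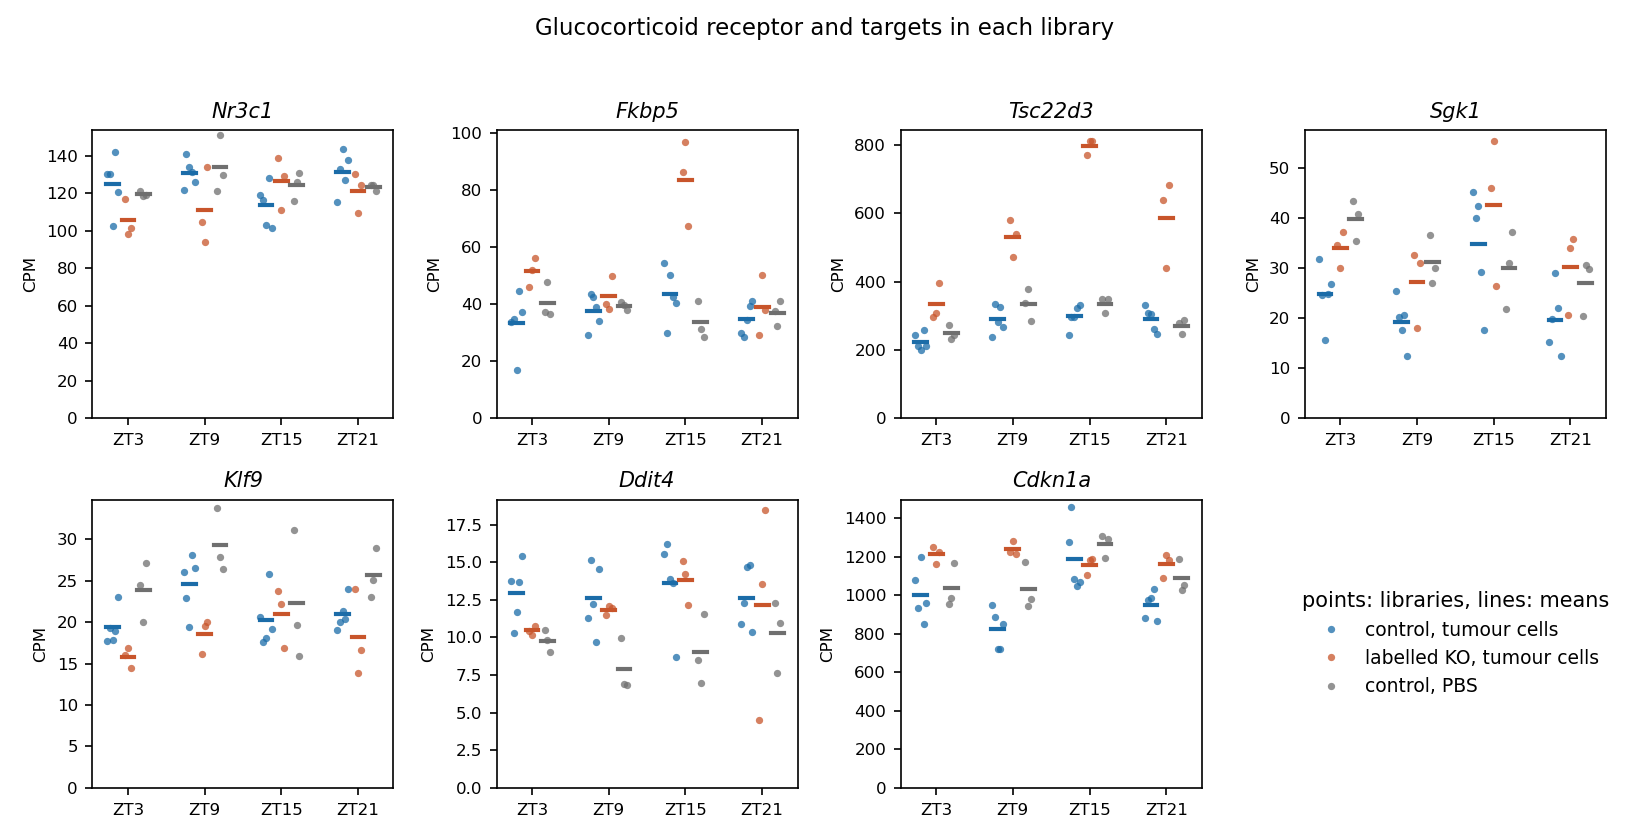
CPM of the 7 members in each of the 44 libraries, by timepoint (x axis, ZT in hours) and group, with 1 point per library and a bar at the mean of each condition. Tsc22d3 in KO libraries lies above all WT and PBS points of the same timepoint, and Fkbp5 does so against both groups at ZT15 alone.

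Comparisons were made across groups, each averaged over the 4 timepoints and at each timepoint, by linear models in limma on log2(CPM + 0.5), with p adjusted over the 11963 genes by the Benjamini-Hochberg method. WT against PBS asks what tumour cells do in control mice, KO against WT asks what the labelled genotype does in tumour-bearing mice, and KO against PBS sets the KO libraries against a group of like depth. WT is shared by the first and the second comparison, KO by the second and the third, and PBS by the first and the third, so they are not independent of each other. Averaged over time, 5 of the 7 members passed an adjusted p of 0.05 between KO and WT (4 higher, 1 lower), where 33.7% of all genes passed, 23.5% higher and 10.2% lower. Against PBS, 3 of the 7 passed in KO (2 higher, 1 lower), beside 9.73% of all genes, 5.43% higher and 4.3% lower. For WT against PBS, 4 of the 7 passed (1 higher, 3 lower), beside 37.9% of all genes, 13.3% higher and 24.6% lower. The median difference of the members was 0.29 for KO against WT (0.10 over all genes), 0.12 for KO against PBS (0.02 over all genes) and -0.11 for WT against PBS (-0.04 over all genes), all on the log2 scale.

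**Figure D2:**
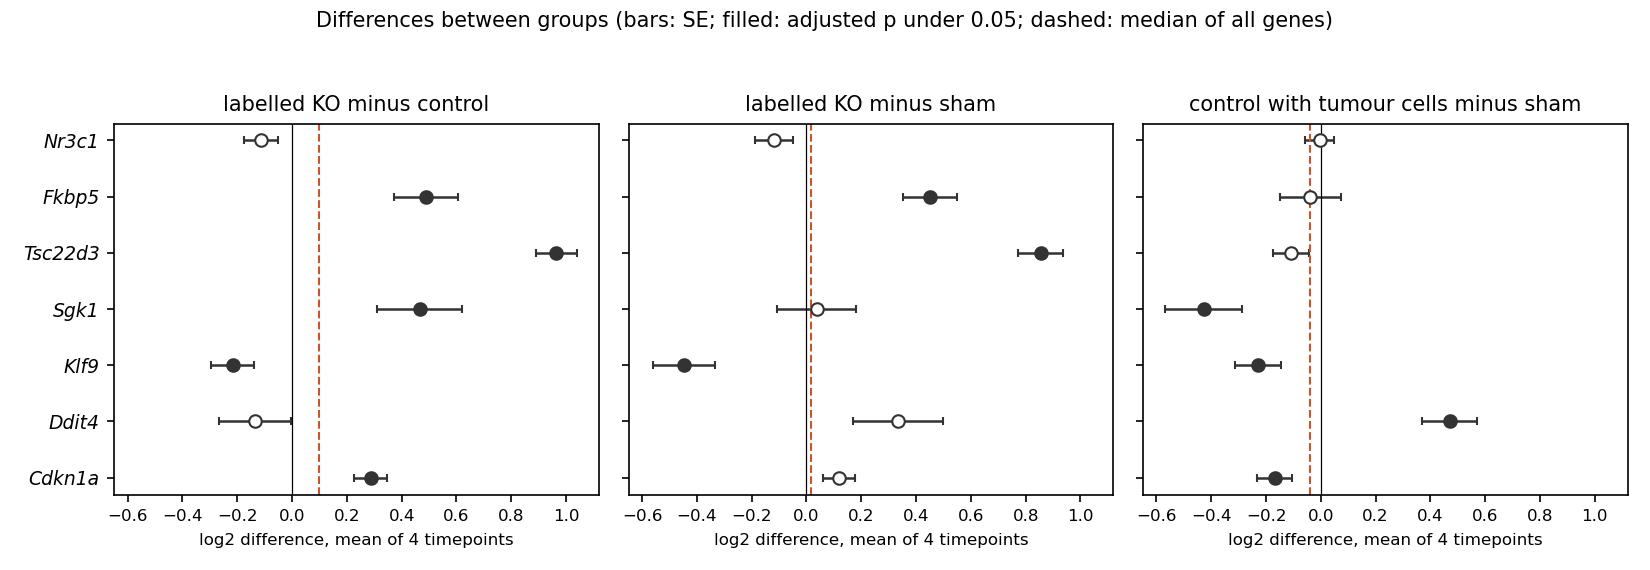
Differences of the 7 members averaged over the 4 timepoints, in log2 units on the x axis, for WT against PBS, KO against WT and KO against PBS. Bars show the standard error to each side, filled points have an adjusted p under 0.05 in limma, and dashed lines mark the median of all genes. Tsc22d3 lies at 0.96 and 0.86 against WT and PBS libraries, and Nr3c1 lies at -0.00, -0.11 and -0.12 in the 3 comparisons.

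At single timepoints the members passed less often. Between KO and WT, 6 of 28 pairs of member and timepoint passed, 1 at ZT3, 2 at ZT9, 2 at ZT15 and 1 at ZT21, where 5.2%, 8.94%, 14.8% and 14.2% of all genes passed. Of the 28 pairs between KO and PBS, 3 passed, 2 at ZT15 and 1 at ZT21, where 2.77% and 0.51% of all genes passed. None passed in limma at ZT3 or ZT9, where 2 and 3 members had an unadjusted p under 0.05 and where 0.1% and 0.468% of all genes passed. Of those between WT and PBS, 1 passed, at ZT9, beside 16.3% of all genes. None passed in limma at ZT3, ZT15 or ZT21, with 1, 1 and 0 members at an unadjusted p under 0.05 and 10.5%, 17.6% and 9.21% of all genes past the threshold.

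Nr3c1 (ENSMUSG00000024431.15, chr18:39410545-39519421, minus strand, GRCm38) encodes the receptor itself. Its lowest, median and highest values were 101.5, 128 and 144 CPM in WT, 94.2, 114 and 139 CPM in KO and 116, 123 and 151 CPM in PBS libraries. Over all timepoints the groups overlapped, although 6 of 12 KO libraries lay below all PBS libraries. At ZT3 all 3 KO libraries (98.1 to 117 CPM) lay below the 3 PBS libraries (118 to 121 CPM). Its mean was lowest at ZT15 in WT (114 ± 11.1, SD, n = 5) and at ZT3 in KO (106 ± 10.1, SD, n = 3) and PBS (119.5 ± 1.52, SD, n = 3). Averaged over time, Nr3c1 differed by -0.00 between WT and PBS, with an interval of 2 standard errors from -0.11 to 0.10 on the log2 scale (adjusted p = 0.9603, limma). Between KO and WT the difference was -0.11 (SE 0.06, adjusted p = 0.156, limma), and between KO and PBS it was -0.12 (SE 0.07, adjusted p = 0.280, limma). With median-of-ratios scaling, which moves the median of all genes between KO and WT from 0.10 to 0.01, the difference between KO and WT was -0.21 and passed (adjusted p = 0.00320, limma). It also passed with array weights on the deposited scaling, at -0.17 (adjusted p = 0.0117, limma).

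Fkbp5 (ENSMUSG00000024222.17, chr17:28399094-28517527, minus strand) encodes a co-chaperone of HSP90 that binds the receptor complex and lowers its affinity for hormone, and its induction closes a feedback loop. At ZT15 it stood at 86.2, 96.9 and 67.5 CPM in the KO libraries. The WT libraries of that timepoint held 54.3, 30.0, 50.3, 42.3 and 40.2 CPM, and the PBS libraries 41.2, 31.2 and 28.5 CPM. The 3 KO libraries at ZT15 thus lay above all libraries of the other conditions. At ZT3 the KO libraries held 46.1, 52.0 and 56.1 CPM, against 33.8, 34.7, 16.8, 44.5 and 37.1 CPM in WT and 37.3, 47.6 and 36.5 CPM in PBS. At ZT9 the KO values of 40.0, 38.2 and 50.0 CPM and at ZT21 those of 29.1, 50.1 and 37.8 CPM overlapped with both other groups, which ranged from 28.6 to 43.7 CPM at those timepoints. Averaged over time, Fkbp5 was 1.40-fold higher in KO than in WT (log2 difference 0.49, SE 0.12, adjusted p = 0.00207, limma) and 1.37-fold higher than in PBS (0.45, SE 0.10, adjusted p = 0.00973, limma). At ZT15 the differences were 0.95 against WT (SE 0.23, adjusted p = 0.00890, limma) and 1.30 against PBS (SE 0.20, adjusted p = 0.00324, limma). Without KO ZT15 replicate 2, the library with the highest value, the difference from WT at ZT15 was 0.83 with an adjusted p of 0.0510. Between WT and PBS it differed by -0.04 (SE 0.11, adjusted p = 0.815, limma), and this direction turned to 0.01 with median-of-ratios scaling.

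The KO libraries at ZT15 also stood apart in the marker genes of macrophages and monocytes. The summed level of these 7 genes was 225, 454 and 263 CPM there, 69.1 to 145 CPM in the other KO libraries, 90.0 to 117 CPM in WT libraries at ZT15 and 133 to 251 CPM in PBS libraries at ZT15. All 7 of the markers passed the test as higher in KO than in WT at ZT15. The sum of B cell markers was also highest there, at 76.9 to 149 CPM (mean 106), against 46.2 to 59.0 CPM in WT and 55.7 to 94.7 CPM in PBS at ZT15, and 2 of its 7 tested genes passed as higher than in WT, as did 2 of 6 markers of type 2 conventional DCs (14.8% of all genes passed at ZT15 in either direction). The part of all these markers in the Fkbp5 result, and in that of Tsc22d3, which was also highest in these libraries, was not tested. In tissue sorted as bulk, fewer cells of a type and less RNA per cell cannot be told apart.

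Tsc22d3 (ENSMUSG00000031431.13, chrX:140539528-140600659, minus strand) encodes GILZ, a leucine zipper protein that restrains NF-κB and AP-1. At ZT3 the KO libraries held 297, 309 and 396 CPM, above 199 to 259 CPM in WT and 273, 231 and 244 CPM in PBS. At ZT9 they held 578, 470.4 and 538 CPM, against 239 to 333 CPM in WT and 285 to 378 CPM in PBS. At ZT15 they reached 770.3, 810.04 and 812 CPM, against 243 to 333 CPM in WT and 309 to 348 CPM in PBS. At ZT21 the KO values were 639, 440.3 and 682 CPM, while WT lay between 248 and 332 CPM and PBS between 246 and 288 CPM. At each timepoint, every KO library was above every WT and every PBS library. Averaged over time the difference was 0.96 from WT (SE 0.07, adjusted p = 1.57e-10, limma) and 0.86 from PBS (SE 0.08, adjusted p = 4.65e-06, limma). By p this was rank 36 of 11963 genes in the former and rank 10 in the latter.

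The difference of Tsc22d3 between KO and WT was 0.56 at ZT3 (adjusted p = 0.0228), 0.88 at ZT9 (adjusted p = 3.24e-04), 1.42 at ZT15 (adjusted p = 2.69e-07) and 0.99 at ZT21 (adjusted p = 6.41e-05), each with an SE of 0.15 in limma. Against PBS it was 0.41 at ZT3 (adjusted p = 0.546), 0.67 at ZT9 (adjusted p = 0.0833), 1.25 at ZT15 (adjusted p = 8.65e-04) and 1.09 at ZT21 (adjusted p = 0.00307), each with an SE of 0.16 in limma. The call at ZT3 against WT was lost without WT ZT3 replicate 2 (0.54, adjusted p = 0.0503), without WT ZT3 replicate 5 (0.55, adjusted p = 0.0504) and without KO ZT3 replicate 3 (0.44, adjusted p = 0.166). The median of all genes between KO and WT was 0.25 at ZT15 and 0.12 at ZT21 with the deposited scaling, and 0.04 and 0.00 with median-of-ratios scaling. Whether the difference of Tsc22d3 itself changed over the day was tested by the interaction with time, which gave an adjusted p of 0.123 against WT and 0.293 against PBS (limma). Tsc22d3 differed by -0.11 between WT and PBS (SE 0.07, adjusted p = 0.199, limma), with WT and PBS overlapping at each timepoint.

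**Figure D3:**
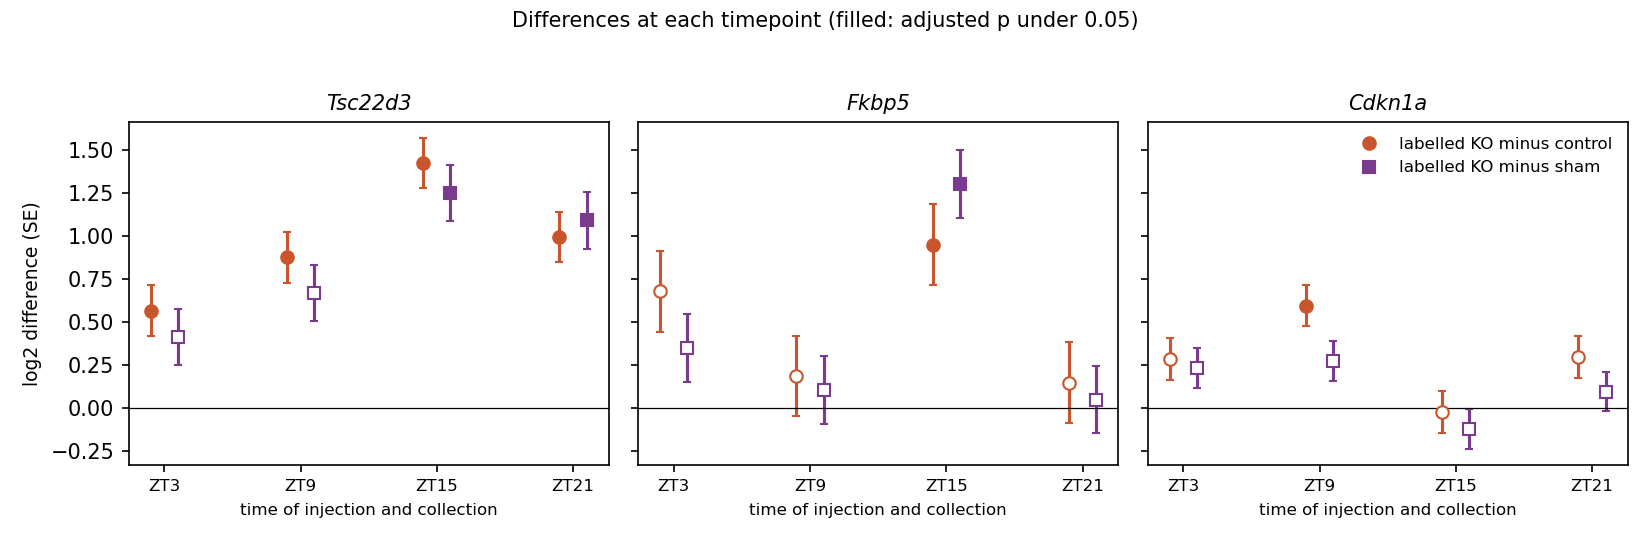
Differences of Tsc22d3, Fkbp5 and Cdkn1a at each timepoint (x axis, ZT in hours, and y axis, log2 difference) for KO against WT and KO against PBS. Bars show the standard error to each side, and filled points have an adjusted p under 0.05 in limma. Tsc22d3 is above 0 at each timepoint in KO against WT and KO against PBS and reaches 1.42 and 1.25 at ZT15, where Fkbp5 reaches 0.95 and 1.30.

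Klf9 (ENSMUSG00000033863.2, chr19:23141226-23168134, plus strand) encodes a zinc finger repressor that the receptor induces directly in many tissues. Its direction in KO libraries was opposite to that of Fkbp5 and Tsc22d3. The lowest, median and highest values were 13.9, 16.9 and 24.03 CPM in KO, 17.7, 20.2 and 28.1 CPM in WT and 15.9, 25.7 and 33.8 CPM in PBS libraries. Of the 12 KO libraries, 7 lay below all 20 WT libraries. At ZT3 the KO values of 16.1, 16.9 and 14.5 CPM lay below all WT values (17.7 to 23.0 CPM) and all PBS values (20.1 to 27.1 CPM), whereas at ZT15 the groups overlapped. Averaged over time, Klf9 fell by 0.22 between WT and KO (SE 0.08, adjusted p = 0.0346, limma) and by 0.45 between PBS and KO (SE 0.11, adjusted p = 0.0202, limma). WT was lower than PBS by a difference of -0.23 (SE 0.08, adjusted p = 0.0302, limma). The call between KO and WT was lost, at adjusted p values of 0.0501 to 0.0841, when any 1 of 9 libraries was left out (WT ZT3 replicate 5, ZT9 replicate 4, ZT15 replicate 4 and ZT21 replicate 5; KO ZT3 replicate 3, ZT9 replicate 1, ZT15 replicate 3 and ZT21 replicates 2 and 3), and with an intensity trend in the variance (adjusted p = 0.0543, limma). The call between WT and PBS was lost without PBS ZT3 replicate 3, ZT9 replicate 1, ZT15 replicate 1 or ZT21 replicate 3, at adjusted p values of 0.0630 to 0.0826, and with median-of-ratios scaling (-0.18, adjusted p = 0.118, limma).

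Sgk1 (ENSMUSG00000019970.15, chr10:21882184-21999903, plus strand) encodes a serum- and glucocorticoid-induced kinase related to AKT. At ZT3 the WT libraries held 31.95, 24.7, 15.8, 24.8 and 26.9 CPM, all below the 43.5, 35.4 and 40.9 CPM of the PBS libraries. At ZT9 the WT values of 25.5, 20.4, 17.7, 20.8 and 12.6 CPM again lay below the 36.6, 27.2 and 30.0 CPM in PBS. At ZT15 and ZT21 both groups overlapped. WT held 17.7 to 45.2 CPM and 12.6 to 29.0 CPM, and PBS 21.9 to 37.2 CPM and 20.5 to 30.6 CPM. The mean at ZT15 was higher in WT (35.0 CPM) than in PBS (30.1 CPM), opposite to the other timepoints. Averaged over time, Sgk1 was lower in WT than in PBS by a log2 difference of -0.43 (SE 0.14, adjusted p = 0.0175, limma) and higher in KO than in WT by 0.47 (SE 0.16, adjusted p = 0.0216, limma). The latter call was lost with median-of-ratios scaling (0.37, adjusted p = 0.0583, limma). The KO libraries ranged from 18.2 to 55.5 CPM and the PBS libraries from 20.5 to 43.5 CPM. Sgk1 differed by 0.04 between KO and PBS, with an interval of 2 standard errors from -0.25 to 0.33 (adjusted p = 0.893, limma), and its sign turned with median-of-ratios scaling. The mean was thus lowest in WT (24.7 CPM, against 33.6 in KO and 32.1 in PBS), the group that also held the shallowest libraries.

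Ddit4 (ENSMUSG00000020108.4, chr10:59949669-59951834, minus strand) encodes REDD1, an inhibitor of mTORC1 that also responds to hypoxia and to ATF4. At ZT9 the WT libraries held 11.3, 15.2, 12.2, 9.72 and 14.6 CPM and the PBS libraries 9.999, 6.88 and 6.82 CPM. At ZT15 the WT values were 15.5, 16.2, 13.9, 13.6 and 8.67 CPM and the PBS values 8.50, 6.98 and 11.6 CPM. Over all timepoints, 12 of 20 WT libraries lay above all 12 PBS libraries. Ddit4 was higher in WT than in PBS by 0.47 averaged over time (SE 0.10, adjusted p = 4.84e-04, limma), by 0.64 at ZT9 (SE 0.20, adjusted p = 0.0266, limma) and by 0.56 at ZT15 (SE 0.20, adjusted p = 0.0506, limma). The call at ZT9 was lost with all 44 libraries in 1 fit (adjusted p = 0.0813, limma), without WT ZT9 replicate 2 or 5 (0.58, adjusted p = 0.0677, and 0.59, adjusted p = 0.0598) and without PBS ZT9 replicate 2 or 3 (0.56 in both, adjusted p = 0.129 and 0.122). The KO libraries held 10.2 to 10.8 CPM at ZT3, 11.5 to 12.1 at ZT9, 12.2 to 15.1 at ZT15, and 4.51, 13.6 and 18.5 CPM at ZT21, where replicate 1 was the lowest of all 44 libraries. Between KO and WT the difference was -0.14 (SE 0.13, adjusted p = 0.453, limma), and without KO ZT21 replicate 1 it was 0.01. Between KO and PBS it was 0.34 (SE 0.16, adjusted p = 0.193, limma), without that library it was 0.48 with an adjusted p of 0.0108, and with array weights 0.38 with an adjusted p of 0.0196.

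Cdkn1a (ENSMUSG00000023067.14, chr17:29090976-29100727, plus strand) encodes p21, an inhibitor of cyclin-dependent kinases and a classical p53 target. In WT it was lowest at ZT9, with 951, 887, 724, 719 and 852 CPM, and highest at ZT15, with 1278, 1460, 1082, 1051 and 1069 CPM, and these values did not overlap. The KO libraries were within 1092 to 1284 CPM at all timepoints, a range much narrower than the 719 to 1460 CPM of WT. The PBS libraries ranged from 944 to 1308 CPM. Averaged over time, Cdkn1a was higher in KO than in WT by 0.29 (SE 0.06, adjusted p = 5.82e-04, limma). The difference was 0.59 at ZT9 (SE 0.12, adjusted p = 0.00222, limma), where the KO values of 1223, 1284 and 1216 CPM lay above all WT values, and -0.02 at ZT15 (SE 0.12, adjusted p = 0.909, limma). Between KO and PBS it was 0.12 (SE 0.06, adjusted p = 0.193, limma). Between WT and PBS it was -0.17 (SE 0.06, adjusted p = 0.0388, limma). This call was lost, at adjusted p values of 0.0516 to 0.0866, when any 1 of 15 libraries was left out (WT ZT3 replicates 2, 4 and 5, ZT9 replicates 3 and 4, ZT15 replicates 3, 4 and 5 and ZT21 replicates 1 and 5; PBS ZT3 replicate 3, ZT9 replicate 1, ZT15 replicates 1 and 3 and ZT21 replicate 1), and with median-of-ratios scaling (-0.12, adjusted p = 0.238, limma).

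Depth and the genes that cells switch on during tissue handling moved with the WT libraries. The sum of 15 dissociation and immediate early genes was 4991 to 9277 CPM in WT (median 6914), 8520 to 13508 CPM in KO (median 10745) and 9488 to 15622 CPM in PBS (median 11954). Of these 15 genes, 12 were higher and 1 lower in KO than in WT (23.5% and 10.2% of all genes), and 2 were higher and 13 lower in WT than in PBS (13.3% and 24.6% of all genes). The macrophage and monocyte sum was 35.5 to 117 CPM in WT, 69.1 to 454 CPM in KO and 133 to 251 CPM in PBS, with 6 of 7 genes higher in KO than in WT and 6 lower in WT than in PBS. Mertk, among these markers, was at 0 in 13 libraries and Fcgr1 in 3. KO and PBS libraries overlapped in depth and in both sums. The 3 Langerhans cell markers moved with the KO libraries, with a sum of 115 to 211 CPM (median 172), against 81.2 to 143 CPM in WT (median 109) and 101 to 150 CPM in PBS (median 124). All 3 were higher in KO than in WT (Cd207 0.68, Epcam 0.67 and Cldn1 0.59) and than in PBS (Cd207 0.67, Epcam 0.45 and Cldn1 0.41), averaged over time in limma. NK cell markers took other directions, with 4 of 6 higher in KO than in WT, 3 lower in KO than in PBS and 5 lower in WT than in PBS. Markers of type 1 conventional DCs had a median sum of 826 CPM in WT, 810.1 in KO and 1114 in PBS, those of type 2 conventional DCs 194, 265 and 306 CPM, and those of T cells 473, 519.9 and 669 CPM. The part of depth and of all these genes in the differences of the members, Tsc22d3 and Fkbp5 included, was not tested.

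**Figure D4:**
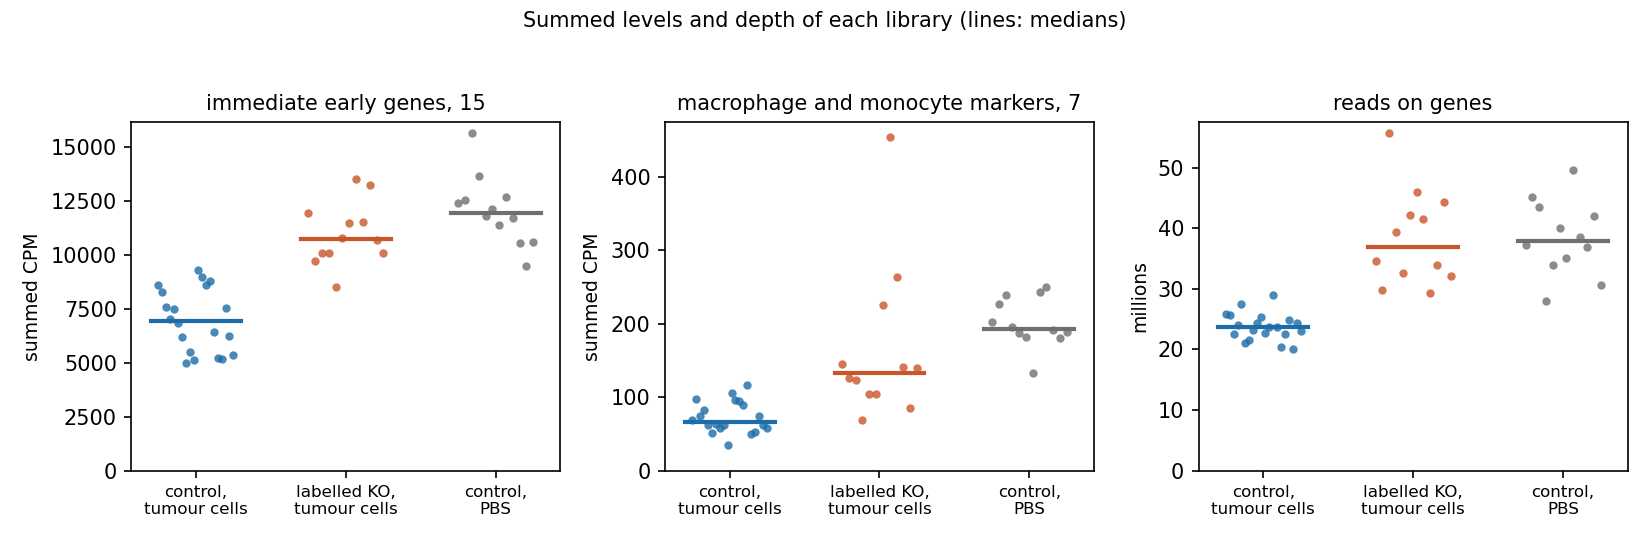
Summed CPM of 15 immediate early genes (left), summed CPM of 7 macrophage and monocyte markers (middle) and reads on genes (right) in each library, by group on the x axis, with 1 point per library and a line at the median. WT libraries lie at 4991 to 9277 CPM in the immediate early sum against 9488 to 15622 CPM in PBS, and the macrophage and monocyte sum is highest in 2 KO libraries at ZT15 (454 and 263 CPM).

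Over the day, Tsc22d3 was the 1 member with an unadjusted p under 0.05 for a 24-h cosinor in each group. Its log2 amplitude was 0.20 in WT with an acrophase, the fitted time of the maximum, at 15.1 h (adjusted p = 0.431, limma). In KO the amplitude was 0.64 at 15.4 h (adjusted p = 0.232, limma), rank 5 of all genes by p. In PBS it was 0.26 at 12.7 h (adjusted p = 0.663, limma). At this unadjusted threshold 9.2% of all genes passed in WT, 10.5% in KO and 7.38% in PBS, so 1 of 7 members is near the background. After adjustment none of the members passed, beside 0.0251% of all genes in WT and 0% in KO and PBS. The WT call was lost without WT ZT3 replicate 2, 3 or 5, where the amplitude was 0.18, 0.17 and 0.18. The mean of Tsc22d3 at its highest timepoint was 2.39 times that at its lowest in KO (ZT15 and ZT3), 1.33 times in WT and 1.34 times in PBS, at the same timepoints in each group.

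A test over the 4 timepoints with no fixed shape passed for none of the 7 members in WT (3 at an unadjusted p under 0.05, limma), in KO (2) or in PBS (1), where 5.28%, 0% and 0% of all genes passed. In WT, Cdkn1a had the smallest adjusted p (0.0571), followed by Tsc22d3 (0.0985) and Sgk1 (0.146). The mean of Sgk1 was 1.80 times higher at ZT15 than at ZT9 in WT and that of Cdkn1a 1.44 times. Over the same pair of timepoints in WT, the mean immediate early sum went from 5732 CPM at ZT9 to 8402 CPM at ZT15, the macrophage and monocyte sum from 53.8 to 101 CPM and the T cell sum from 342 to 519.6 CPM, with no overlap between the timepoints in the macrophage and T cell sums. Their part in the values of Cdkn1a and Sgk1 over the day was not tested. In KO, Tsc22d3 had an adjusted p of 0.230 and Fkbp5 of 0.280, with Fkbp5 at ZT15 2.14 times its mean at ZT21. ZT9 and ZT21, a pair the study compared, differed for none of the members in limma in any group (0 at an unadjusted p under 0.05), where 0.226% of all genes passed in WT, 0.00836% in KO and 0% in PBS. In WT the interval of 2 standard errors for this pair was -0.25 to 0.23 for Tsc22d3 and -0.31 to 0.55 for Fkbp5. Interactions of group and time passed for none of the members in limma. Of all genes, 0.0502% passed between KO and WT (2 members at an unadjusted p under 0.05), 0% between KO and PBS (2 members) and 0% between WT and PBS (0 members). The smallest of these p values were those of Tsc22d3 and Cdkn1a between KO and WT (adjusted p = 0.123 and 0.181) and that of Fkbp5 between KO and PBS (adjusted p = 0.237).

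Other genes that glucocorticoids induce took different directions in the comparisons. Of 17 such genes tested, 8 were higher and 2 lower in KO than in WT (list median 0.31), 2 were higher and 1 lower in KO than in PBS (list median -0.08), and 1 was higher and 10 lower in WT than in PBS (list median -0.34). Of all genes, 23.5% were higher and 10.2% lower in the first of these comparisons, 5.43% and 4.3% in the second and 13.3% and 24.6% in the third, and these shares are the background of the counts of lists given here. Between KO and WT the 4 with the smallest p were Dusp1, a MAP kinase phosphatase (0.59, adjusted p = 2.15e-06), Anxa1, an anti-inflammatory annexin (0.77, adjusted p = 2.32e-05), Errfi1, an EGFR inhibitor (0.63, adjusted p = 2.57e-05), and Zfp36, which destabilizes cytokine mRNAs (0.46, adjusted p = 6.81e-05, limma). These same 4 genes had the smallest p between WT and PBS, with Anxa1 at -0.90, Dusp1 at -0.64, Zfp36 at -0.53 and Errfi1 at -0.85. Between KO and PBS, none of the 4 passed, with Anxa1 at -0.12, Dusp1 at -0.05, Errfi1 at -0.22 and Zfp36 at -0.08. The genes that passed there were Zbtb16, a zinc finger gene (-0.89, adjusted p = 0.0109), Arrdc2 (0.29, adjusted p = 0.0421) and Bcl6 (0.30, adjusted p = 0.0462, limma). Dusp1 and Zfp36 are also on the list of immediate early genes. Per1, a clock gene with a receptor site, was lower in KO than in WT (-0.59, adjusted p = 0.00151) and was at -0.42 against PBS (adjusted p = 0.0966, limma).

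Inflammatory genes that glucocorticoids repress were higher in KO than in WT in 6 of 11 cases and lower in none (33.7% of all genes passed in either direction), with Ccl4 at 2.16, Ccl3 at 1.60, Cxcl10 at 1.13 and Tnf at 0.94. Against PBS, 4 were lower in KO and none higher (9.73% of all genes passed), with Ccl4 at -1.41 (adjusted p = 1.94e-04), Ccl3 at -1.08, Cxcl10 at -0.54 and Il12b at -0.53 (limma). In WT against PBS, 8 of 11 were lower and none higher (37.9% of all genes passed), Ccl4 by a difference of -3.57 and Ccl3 of -2.68. The list median was 0.79 in KO against WT and -0.48 in KO against PBS, and the genes that did not pass were of either sign in both comparisons. Median marker sums in WT, KO and PBS were 65.8, 133 and 194 CPM for macrophages and monocytes and 23.7, 41.0 and 71.2 CPM for NK cells. Their part in the values of this list was not tested.

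Among 13 chaperones, co-factors and enzymes of the receptor pathway, 2 were higher and 4 lower in KO than in WT, where 33.7% of all genes passed. Ncoa2, a co-activator, differed by -0.45, Hsp90ab1 by -0.20, and Hsd11b1, which reactivates the hormone in the cell, by 0.64 (adjusted p = 0.00393, limma). Between WT and PBS, where 37.9% of all genes passed, 4 were higher and 2 lower, with Hsd11b1 at -1.31, Ncoa2 at 0.35 and Ncoa1 at 0.67. Between KO and PBS none passed in limma (2 at an unadjusted p under 0.05), and the smallest adjusted p was that of Hsp90ab1 (-0.18, adjusted p = 0.0524). In WT, 7 of the 13 passed the test over timepoints, beside 5.28% of all genes, led by Hspa8, Hsp90aa1, Hsp90ab1 and Fkbp4. Hsp90aa1 rose from a mean of 194 CPM at ZT9 to 387 CPM at ZT15 (adjusted p = 0.00271), and Fkbp4, the co-chaperone that acts opposite to Fkbp5, from 32.7 to 62.2 CPM (adjusted p = 0.00853, limma). Among the other induced genes, Cebpb and Arrdc2 passed the same test in WT (adjusted p = 0.0172 and 0.0259), Cebpb lowest at ZT9 with 12.8 CPM and Arrdc2 lowest at ZT15 with 38.0 CPM. In WT the immediate early, macrophage and monocyte, and T cell sums also rose from ZT9 to ZT15. Their part in the values of these genes over the day was not tested.

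Lists for the other signals that reach the members were described in the same way, beside 33.7% of all genes that passed between KO and WT, 9.73% between KO and PBS and 37.9% between WT and PBS. Of 12 p53 targets, 2 were higher and none lower in KO than in WT (Mdm2 0.45, adjusted p = 8.30e-04; Bbc3 0.25), 2 higher in KO than in PBS (Mdm2 0.34; Ccng1 0.37) and 2 higher in WT than in PBS (Sesn2 0.35; Phlda3 0.19, limma). Mdm2, which encodes the ubiquitin ligase of p53, was thus higher in KO in both comparisons. Of 10 ATF4 and hypoxia targets, 4 were higher in KO than in WT (Bnip3 0.75, Vegfa 1.39, Asns 0.65, Egln3 0.89), 1 higher than in PBS (Trib3 1.00, adjusted p = 0.0406), and 3 higher and 3 lower in WT than in PBS, led by Egln3 (-1.87) and Vegfa (-1.68). Of 10 FOXO targets, 3 were higher and 1 lower in KO than in WT. Klf2 stood at 1.06 (adjusted p = 3.07e-09), Il7r at 0.56, Bcl6 at 0.31 and S1pr1 at -0.38. Bcl6 alone passed against PBS (0.30), and Il7r (-0.45) and Klf2 (-0.64) were lower in WT than in PBS (limma).

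The closest relatives of the members ranged from below 1 CPM per kilobase to above the level of Nr3c1. Per kilobase, Fkbp4 stood at 17.1, 20.5 and 19.1 CPM in WT, KO and PBS, above Fkbp5 in each group. Tsc22d4 stood at 7.48, 8.20 and 7.90, Klf13 at 5.12, 5.76 and 7.36, Sgk3 at 4.28, 5.39 and 3.92, and Tsc22d1 at 2.90, 3.82 and 4.32 CPM per kilobase. Nr3c2, which encodes the mineralocorticoid receptor that also binds corticosterone, had 0.475, 0.584 and 0.482 CPM per kilobase, far below Nr3c1. Cdkn1c (0.931, 0.942 and 0.928) and Ddit4l (1.21, 0.955 and 1.14) were low as well, whereas Cdkn1b (3.53, 3.46 and 3.82) and Tsc22d2 (4.23, 3.92 and 3.42) lay between. Of the 10 relatives, 3 were higher and none lower in KO than in WT, near the 33.7% of all genes that passed, namely Tsc22d1 (0.40, adjusted p = 0.00340), Sgk3 (0.32, adjusted p = 0.00540) and Fkbp4 (0.24, adjusted p = 0.0333, limma). Sgk3 alone passed between KO and PBS (0.46, adjusted p = 0.0326, limma). Between WT and PBS, Tsc22d1 (-0.59), Klf13 (-0.48) and Fkbp4 (-0.19) were lower and Tsc22d2 (0.31) was higher, beside 37.9% of all genes that passed.

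Likeness of pattern was measured by Pearson's r of log2(CPM + 0.5) over the 44 libraries, which share 12 conditions and differ in depth, and it is given as a description. Tsc22d3 was most like Gramd3 (0.819), Ppfibp2 (0.792) and Serinc3 (0.766), and Cdkn1a most like Nfkbia (0.785), Socs1 (0.745) and Id1 (0.741). Sgk1 was most like Nfkbiz (0.765), Socs3 (0.760) and Bhlhe40 (0.758), and Ddit4 most like Sesn3 (0.733), Lfng (0.658) and Apbb1 (0.648). Fkbp5 was most like Rundc1 (0.691), Hvcn1 (0.682) and Kbtbd2 (0.682), Nr3c1 most like Rapgef6 (0.687), 4932438A13Rik (0.651) and Mlxip (0.643), and Klf9 most like Rrbp1 (0.5396), Snx21 (0.539) and Wnt11 (0.516). Within the set, the r of Tsc22d3 was 0.55 with Fkbp5 and -0.04 with Nr3c1, and that of Sgk1 was 0.49 with Cdkn1a and 0.48 with Fkbp5. The lowest values were -0.49 for Nr3c1 with Cdkn1a, and -0.34 and -0.33 for Klf9 with Cdkn1a and with Ddit4.

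After the mean of each of the 12 conditions was subtracted, which leaves the spread among mice of a condition, Tsc22d3 had an r of 0.02 with Fkbp5. That of Sgk1 was 0.19 with Cdkn1a and 0.29 with Fkbp5, and that of Nr3c1 was -0.28 with Cdkn1a. The genes most like each member were then others, apart from Rundc1 for Fkbp5 and Nfkbia for Cdkn1a. They were Zfp644 (0.709), Ankrd49 (0.674) and Dmxl2 (0.654) for Tsc22d3, and Cdk20 (0.717), Vav2 (0.687) and Rundc1 (0.685) for Fkbp5. They were Cnot4 (0.742), Trpm7 (0.741) and Creb1 (0.722) for Nr3c1, and Dntt (0.589), Arl8a (0.567) and Nfya (0.553) for Klf9. They were Lfng (0.760), Zc3h12a (0.689) and Ptgs2 (0.687) for Sgk1, Tra2b (0.742), Vapb (0.725) and Jmjd7 (0.722) for Ddit4, and Nfkbia (0.744), Zfp36l1 (0.707) and Bcl2a1b (0.694) for Cdkn1a. Among the members themselves, the highest r within conditions was 0.48, between Sgk1 and Ddit4, and the lowest was -0.40, between Fkbp5 and Cdkn1a.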

How the data were processed

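RNA-seq was performed on 44 libraries of sorted CD45+CD11c+MHCII high cells, grouped by the labels as WT, KO and PBS at 4 timepoints. The authors prepared cDNA with SMART-Seq v4 and libraries with Nextera XT, sequenced single reads of 50 bases, used STAR for alignment to mm10 and HTSeq 0.9.1 for counting per gene, and deposited CPM scaled by library size alone. In each library 85.9% to 87.6% of values were whole multiples of 1 read (tolerance 0.001), from which the depth of 20088012 to 55799162 reads was obtained. The rest were fractions of a read, so no count test and no counting interval was used. Scaling by library size makes a gene's CPM depend on the other genes of the library.

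The 11963 genes that reached 1 CPM in 5 or more libraries were tested with limma 3.58.1 in R 4.3.3 on log2(CPM + 0.5), where folds of low genes are understated. The condition means of the 2 groups compared were fitted, and p-values were adjusted by Benjamini-Hochberg over all of them. Rhythms were tested with a 24-h cosinor and with an F test over 4 timepoints. Each group was fitted alone. Tables and figures were made with numpy 2.4.6, matplotlib 3.10.9 and pandas 2.3.3 under Python 3.11.15. Gene positions and exon lengths are those of GENCODE for GRCm38, and promoter windows those of RefSeq for GRCm38.p6. Each library was 1 mouse, no pair of libraries was identical, and replicates correlated with r of 0.924 to 0.984. No column of the table was left unused.

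On simulated data with 200 genes changed by 1 on the log2 scale, 92.5% of changed genes were called for KO against WT averaged over time, 90% for WT against PBS, and 60% for KO against WT at ZT15. The test over timepoints called 63.5% in WT, 19.5% in KO and 24% in PBS.

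The members and the gene lists were chosen with earlier results of these data known. Named are the 7 members, the genes of each list that passed a comparison (at most the 4 with the smallest p, otherwise the 1 with the smallest p), paralogues of the members, and the 3 genes most like each member. Per1 was named after its values were seen, and 1 gene that this rule names is not reported here. Alternatives were other pseudocounts (1 and 0.1), median-of-ratios scaling, other filters, other variance models, all libraries in 1 fit, the replicate number as a block and leaving out each library. KO against PBS was added after the data were seen. The labels give no sequencing run or experiment for the libraries.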

Additional observations from a re-analysis of the deposited data

How the results depend on the processing

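Over 10 settings, 878 of 910 values of members kept their direction and their side of the threshold, 9 no longer passed, 18 passed anew and 5 turned in sign, and without 1 library 2014 of 2072 did. Of the differences at single timepoints, these values hold only those that had passed between KO and WT or between WT and PBS. Pairs of member and timepoint that passed anew are therefore not among the 18. With median-of-ratios scaling 2 of the 7 members passed between WT and PBS averaged over time (4 otherwise, Cdkn1a and Klf9 lost), 1 passed over the WT timepoints (0 otherwise, Cdkn1a) and 2 pairs of member and timepoint passed between WT and PBS (1 otherwise). Of all 11963 genes, 4509 passed in the first of these tests (4529 otherwise) and 659 in the second (632 otherwise). A pseudocount of 1 also gave 2 pairs of member and timepoint between WT and PBS. A mean of at least 10 CPM gave 2 such pairs and 1 member over the WT timepoints, beside 891 of 7928 genes. Ordinary least squares gave 1 member over the WT timepoints. An intensity trend gave 2 members over the WT and 1 over the KO timepoints. Of all 11963 genes, 936 and 9 passed there (632 and 0 otherwise). Array weights gave 2 members in the WT cosinor and 2 over the WT timepoints, 3 pairs between WT and PBS, 11 pairs between KO and WT (6 otherwise) and 2 members in the interaction of KO and WT with time (Tsc22d3 and Cdkn1a). All 44 libraries in 1 fit gave 2 members in the WT cosinor, 1 over the WT and 2 over the KO timepoints (Tsc22d3 and Fkbp5), and 0 pairs between WT and PBS. No share of all genes is given here for the pairs, or for array weights, ordinary least squares and the single fit. Those counts are therefore not read as results about the members. Without the comparison group WT, that is with PBS in its place (added after the data were seen), 3 members passed against KO averaged over time (5 otherwise).

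Samples with the same replicate number did not deviate together (mean r of -0.00 over 210 pairs, 9 of them above 0.1, against 0.00 over 672 other pairs), so the numbers do not pair the samples. With the replicate block, 2 members passed between WT and PBS averaged over time (Sgk1 at -0.29 and Cdkn1a at -0.11 did not, adjusted p = 0.137 and 0.273 in limma) and 3 between KO and WT (Sgk1 at 0.33 and Klf9 at -0.13 did not, adjusted p = 0.143 and 0.244 in limma), and no other count changed. The cause of these changes was not tested. Without 1 library, members that passed averaged over time numbered 2 to 4 between WT and PBS (2 without PBS ZT3 replicate 3, ZT9 replicate 1 or ZT15 replicate 1) and 4 to 5 between KO and WT. Pairs numbered 0 to 2 between WT and PBS and 5 to 7 between KO and WT. Members that passed numbered 0 to 1 in the WT cosinor, 1 to 2 in the KO cosinor (2 without KO ZT21 replicate 1, with Ddit4) and 0 to 1 over the WT timepoints.

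Signs turned for 4 differences, none of which passed the test. Averaged between WT and PBS, Fkbp5 was 0.010 with median-of-ratios scaling, 0.041 with array weights and -0.069 to 0.017 without 1 library (above 0 without WT ZT3 replicate 3). Nr3c1 was 0.046 with median-of-ratios scaling, 0.021 with array weights, and -0.021 to 0.018 without 1 library (above 0 for 7 libraries: 0.0020 and 0.0074 without replicate 1 of WT ZT9 and ZT21, 0.013 without WT ZT3 replicate 3, 0.0040 and 0.0057 without WT ZT15 replicates 3 and 5, 0.018 without PBS ZT9 replicate 2, 0.0054 without PBS ZT15 replicate 3). Sgk1 between KO and PBS was -0.0059 with median-of-ratios scaling, and -0.017 to 0.11 without 1 library (-0.00017, -0.017, -0.014 and -0.0081 without KO ZT9 replicate 1, KO ZT15 replicate 2, PBS ZT15 replicate 1 and PBS ZT21 replicate 1). Ddit4 between KO and WT was -0.23 to 0.0069 without 1 library, with the highest value without KO ZT21 replicate 1.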
